A study of Zea mays with 6 samples.

Results

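In developing leaves of wild-type plants and of the hda108 mutant, 4 maize genes were described that a RefSeq name table calls TPS5 or TPS9. They were chosen on the difference between these genotypes, so its direction is described and not tested. All 4 identifiers were found among the 39604 genes of the deposited table. GRMZM2G074309 carries the name TPS5, as do GRMZM2G117319 and GRMZM2G099860, which are not among the 4. GRMZM2G122231, GRMZM2G312521 and GRMZM2G465812 each carry the name TPS9. Levels were lower in hda108 for all 4, from 28.4% of the wild-type value for TPS5 on chromosome 10 to 86.5% for the TPS9 gene on the same chromosome.

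The plants were grown in a greenhouse to vegetative stage 8, and the wrapped 11th leaf was taken. The labels describe 3 wild-type and 3 hda108/hda108 libraries of total RNA, and name no other allele, no background line and no treatment. The product of HDA108, a histone deacetylase, takes acetyl groups off histones. The deposited values are FPKM, in which fragment counts are divided by transcript length and library size, and the authors give 1 value per gene and genotype.

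The abbreviation TPS stands for enzymes of unrelated families in plants. Trehalose phosphate synthases join glucose units from UDP-glucose and glucose 6-phosphate into trehalose 6-phosphate, a sugar phosphate that plants use as a signal of their sucrose supply and that restrains the energy-sensing kinase SnRK1. In Arabidopsis many members of that family have little or no measured synthase activity and are thought to act as regulators. Terpene synthases instead turn prenyl diphosphates into volatile or protective terpenes, and in maize leaves several of them respond to feeding insects.

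The names did not bear out a reading of all 4 genes as trehalose phosphate synthases. The synonyms of GRMZM2G074309 include tps5-B73, tps5-Del1 and tps5-Del2, which are allele names of a maize sesquiterpene synthase from the lines B73 and Delprim. A gene 223 kb away, GRMZM2G117319, carries the matching name tps4-B73. The TPS9 gene of chromosome 10, GRMZM2G465812, lies 397 kb from TPS5 in the same stretch, and nothing in its synonyms states its enzyme. For the TPS9 genes of chromosomes 5 and 4 the synonyms give no enzyme either, so whether they encode trehalose phosphate synthases was not tested. The name is also not unique, since TPS5 is carried by 3 identifiers of the table, GRMZM2G074309, GRMZM2G117319 and GRMZM2G099860 on chromosome 1.

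No difference below has a replicate check, because the libraries of each genotype stand as 1 value, and the sequencing depth is unknown. Differences are given as log2 of FPKM + 0.5, hda108 minus wild type, which understates folds of genes with low values. A gene entered the comparison if neither value was 0 and the values averaged 1 FPKM or more, and it was counted as different past 2-fold. Of 21057 compared genes, 0.836% were past 2-fold lower in hda108 and 1.48% past 2-fold higher, with a median difference of 0.06. The targeted gene GRMZM2G136067 stood at 10.9 FPKM in wild type against 3.06 in hda108, in the direction of its label. The photosynthesis genes pep1, pdk1, me3 and rca1, taken as leaf markers, were abundant and summed to 1802 FPKM in wild type against 816 in hda108. All 4 were lower in hda108, by differences between -1.29 and -0.82, and their part in the results below was not tested. The meristem gene kn1 was near 0, at 0.025 FPKM in wild type against 0.022 in hda108. In a whole leaf, fewer cells of a type and less RNA per cell cannot be told apart.

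Of the TPS9 genes that lie apart from the chromosome 10 cluster, GRMZM2G122231 differed more than GRMZM2G312521. GRMZM2G122231 (chromosome 5, 213103735 to 213107678, B73 RefGen_v3) had 3.49 FPKM in wild type against 1.27 in hda108. The mutant value was 36.4% of the wild-type value, and on the scale of FPKM + 0.5 the gene was 2.25-fold lower, a log2 difference of -1.17. This TPS9 gene thus stood past the 2-fold rule, where 111 compared genes had a more negative difference. With a pseudocount of 1 the difference was -0.98, just inside 2-fold.

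GRMZM2G312521 (chromosome 4, 174991783 to 174996304) was the least abundant of the 4 genes in both genotypes. It had 1.88 FPKM in wild type against 0.964 in hda108, which is 51.4% of the wild-type value. The log2 difference was -0.70, or 1.62-fold lower, inside the 2-fold rule. This TPS9 gene shares chromosome 4 with HDA108, at a distance of 109 Mb, and 4.76% of the 2099 compared genes of that chromosome differed past 2-fold in either direction, against 2.31% of all compared genes. A chromosome segment carried along with the mutation and an effect of the mutation cannot be told apart for it. Segments of another background around the genes on chromosomes 5 and 10 were not tested either, since the labels name no background line.

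**Figure D1:**
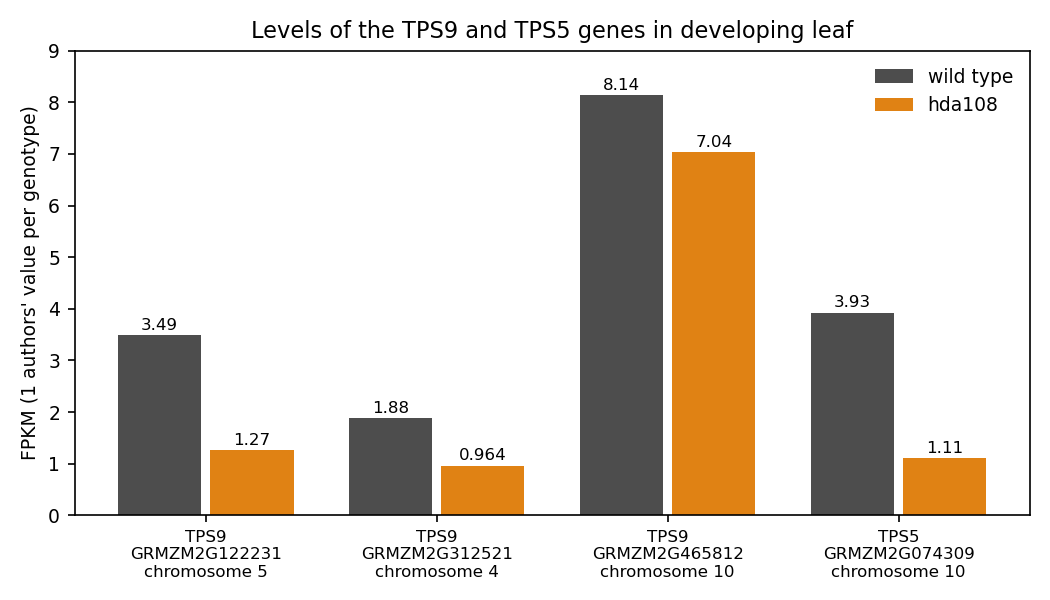
Levels in FPKM of the 4 genes in wild type (dark bars) and hda108 (orange bars), 1 authors' value per genotype and so without error bars. Each mutant bar is lower than its wild-type bar, from 86.5% of the wild-type value for GRMZM2G465812 to 28.4% for GRMZM2G074309.

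On chromosome 10, TPS5 and the TPS9 gene of the same cluster differed from each other in size. TPS5 (GRMZM2G074309, 74248610 to 74251874) had 3.93 FPKM in wild type against 1.11 in hda108, 28.4% of the wild-type value. Its log2 difference of -1.46 ranked 49th from the lowest among all compared genes. GRMZM2G465812 (73850130 to 73851474) was the most abundant of the 4 genes, at 8.14 FPKM in wild type against 7.04 in hda108. Its log2 difference was -0.20, and 3822 compared genes had a more negative one. The deposited locus of this TPS9 gene spans 1345 bp, whereas the RefSeq entry that lists the identifier is 2474 bp long. Whether the counted model covers the whole gene was not tested. For the other 3 genes the 2 lengths were closer, at 3265 and 3220 bp for TPS5, 3944 and 3774 bp for GRMZM2G122231, and 4522 and 4118 bp for GRMZM2G312521. None of the 4 loci overlapped another entry of the table.

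TPS5 reads may be shared with its neighbour TPS4. GRMZM2G117319 (74022932 to 74026069) carries the names TPS4 and TPS5, and also tps5-Del1, a name that TPS5 itself carries. It had 3.55 FPKM in wild type against 1.63 in hda108, a difference of -0.93. How fragments that match both genes were assigned is not given in the sources used here, so the values of the individual genes are uncertain. Their summed level was 7.48 FPKM in wild type against 2.74 in hda108. With the pseudocount that all differences use, the sum was 2.46-fold lower (-1.30), which understates the fold of the FPKM themselves.

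Other genes of the cluster differed in both directions. Within the 642 kb from GRMZM2G465812 to tps10, 4 of 10 listed genes carry a TPS name. The sesquiterpene synthase gene tps10, which makes farnesene and bergamotene in leaves attacked by caterpillars, lies 237 kb from TPS5. It had 0.291 FPKM in wild type against 1.85 in hda108, a difference of 1.57 in the opposite direction. Within 1 Mb on each side of TPS5 there were 25 listed genes, of which 11 were compared and 6 were at 0 in both genotypes. Of the 11, only TPS5 was past 2-fold lower, while tps10 and the unnamed GRMZM2G407495 (2.48 FPKM in wild type against 14.5 in hda108) were past 2-fold higher. Over all compared genes the shares were 0.836% lower and 1.48% higher.

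**Figure D2:**
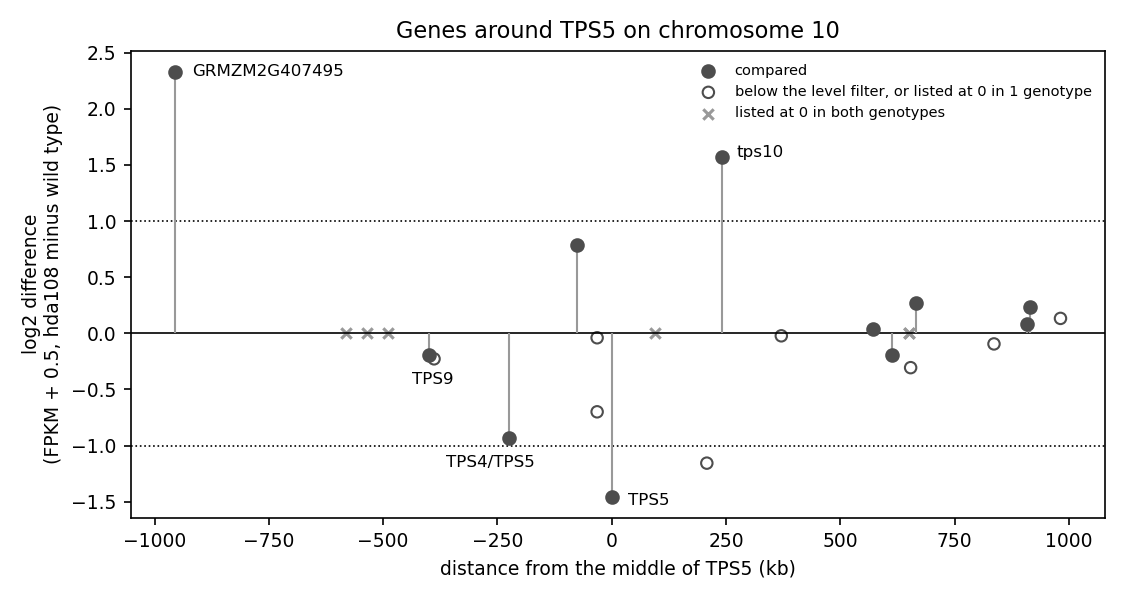
Log2 difference of genes within 1 Mb of TPS5 by their distance in kb from its middle. Filled points are compared genes, open points have lower levels or a listed 0 in 1 genotype, crosses are at 0 in both, and dotted lines mark 2-fold. TPS5 (-1.46) and TPS4 (-0.93) lie below 0 and tps10 (1.57) above it, with the TPS9 gene close to 0 (-0.20).

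The order of the 4 levels differed between genotypes. In wild type, GRMZM2G465812 was highest, followed by TPS5, GRMZM2G122231 and GRMZM2G312521. In hda108, GRMZM2G465812 was again highest, followed by GRMZM2G122231, TPS5 and GRMZM2G312521. TPS5 was 1.12 times GRMZM2G122231 in wild type and 0.877 times that gene in hda108. Without a spread between plants, whether neighbours in these orders differ was not tested. The ratio of the highest to the lowest level was 4.34 in wild type and 7.31 in hda108. The 4 levels summed to 17.4 FPKM in wild type against 10.4 in hda108.

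In wild type, 48.8% of the 29216 genes listed above 0 had a lower value than TPS5, 46.6% a lower one than GRMZM2G122231 and 36.4% a lower one than GRMZM2G312521. In hda108 those shares were 30.2%, 31.7% and 28.6% of 29817 genes. These genes stood higher among the listed values of wild type than among those of hda108, which restates the contrast they were chosen on. GRMZM2G465812 had 65.4% of genes below it in wild type and 61.5% in hda108.

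**Figure D3:**
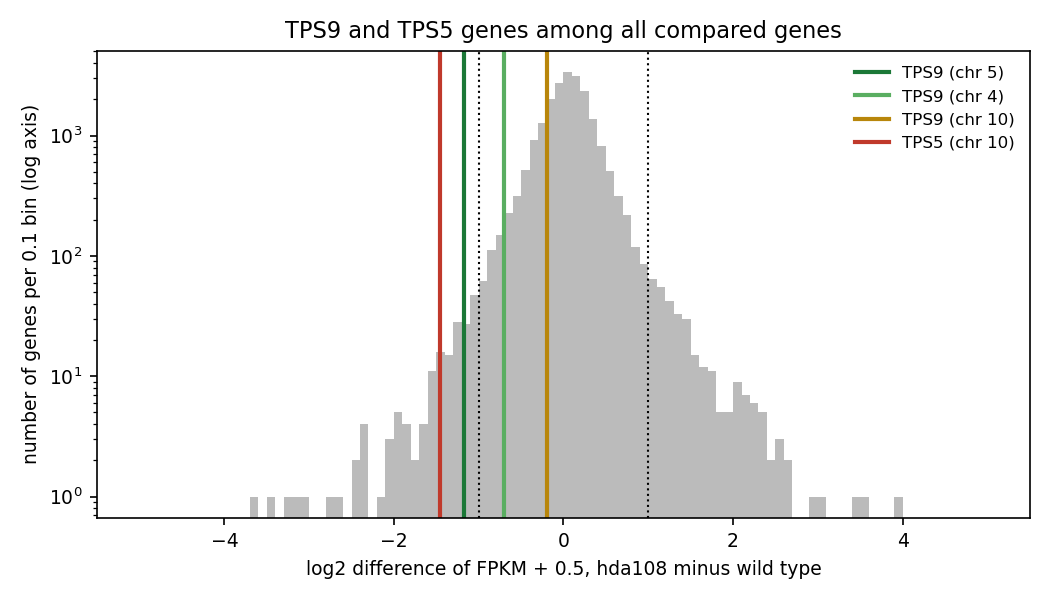
Number of compared genes (log axis) by log2 difference, hda108 minus wild type, in bins of 0.1, with the 4 genes as coloured lines and 2-fold as dotted lines. TPS5 (-1.46) and the chromosome 5 TPS9 gene (-1.17) stand in the sparse left tail, the chromosome 4 TPS9 gene (-0.70) inside 2-fold and the chromosome 10 TPS9 gene (-0.20) within the main body.

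Of the 4 genes, 2 were past 2-fold lower and none higher, beside the 0.836% of all compared genes that were past 2-fold lower. Past 1.5-fold, 3 of the 4 were lower and none higher, where 3.63% of all compared genes were lower and 5.32% higher. Since the genes were chosen on this contrast, nothing is read from these counts. Their median difference was -0.94.

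Other genes with a TPS name had differences in both directions. The table holds 17 further identifiers with such a name, of which 12 were compared. Of these, 8 had a difference below 0 and 4 above 0, with a median of -0.07, and 40.3% of all compared genes lay below 0. Without chromosome 10, 7 of 9 lay below 0 and 2 above, with a median of -0.10. Of the 12, 3 were past 2-fold higher on the scale of FPKM + 0.5 and none lower, beside 1.48% and 0.836% of all compared genes. In the FPKM themselves, TPS4 of chromosome 10 was at 45.8% of wild type and TPS3 of chromosome 5 at 206%. Low levels kept 5 out of the comparison, among them the entries named TPS20-Del at 0 in both genotypes and EDS, or TPS17, a eudesmanediol synthase gene, at 0.023 FPKM in wild type against 0.031 in hda108.

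Loci that share a name differed in their values. The remaining holder of the name TPS5, GRMZM2G099860 on chromosome 1, had 6.59 FPKM in wild type against 5.54 in hda108, a difference of -0.23 against -1.46 for the chromosome 10 gene. The name TPS4 belongs to GRMZM2G527891 on chromosome 2, with a difference of -0.14, as well as to the neighbour of TPS5. TPS2 on chromosome 5 (GRMZM2G046615) had 7.59 FPKM in wild type against 16.0 in hda108, whereas TPS2 on chromosome 3 (GRMZM2G123277) had 8.06 FPKM in wild type against 8.01 in hda108. TPS3 on chromosome 5 (GRMZM2G064406), 114 kb from that TPS2 gene, had 0.936 FPKM in wild type against 1.93 in hda108. TPS3 on chromosome 8 (GRMZM2G118462) had 19.2 FPKM in wild type against 15.2 in hda108. So under the names TPS2 and TPS3 the neighbouring chromosome 5 genes had higher values in hda108, while the differences of their namesakes elsewhere were -0.01 and -0.33.

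Single-locus names completed the set. TPS8 (GRMZM2G038153) had 1.34 FPKM in wild type against 0.674 in hda108, a difference of -0.65 close to that of the chromosome 4 TPS9 gene. TPS7 (GRMZM2G019183) differed by -0.10. The gene tps1, also named KS for kaurene synthase, an enzyme of gibberellin synthesis, differed by -0.05. The caryophyllene synthase gene tps23, on chromosome 10 but outside the cluster, was the highest of the set by difference, at 2.15.

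**Figure D4:**
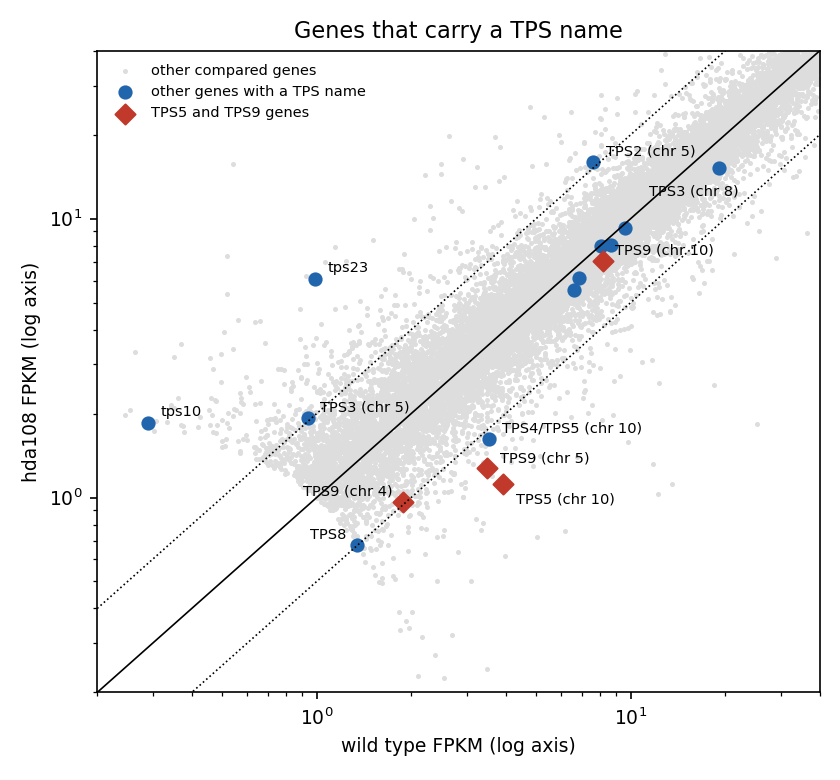
FPKM in hda108 against FPKM in wild type on log axes for the compared genes with a TPS name, with other compared genes in grey where both values lie between the axis limits. The solid line marks equal values and dotted lines a ratio of 2 in the FPKM themselves. Red diamonds are the 4 genes described here. Blue points are the other TPS names, including the remaining holders of the name TPS5, and of them tps10 and tps23 lie farthest above the line.

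Genes of sugar metabolism were listed beside the TPS9 genes because trehalose 6-phosphate reports on sucrose. Among 21 identifiers found by name, 15 were compared, 10 with a difference below 0 and 5 above, with a median of -0.06. Of all compared genes, 40.3% lay below 0. Of the 15, 1 was past 2-fold lower and none higher, beside 0.836% and 1.48% of all compared genes. The lower one was sps1 (GRMZM5G875238), for sucrose phosphate synthase, a key enzyme of sucrose synthesis. It had 12.4 FPKM in wild type against 4.54 in hda108, a difference of -1.36. The sucrose phosphatase genes that act after it differed less, with spp1 (GRMZM2G055489) at 38.0 FPKM in wild type against 34.7 in hda108, and SPP2 (GRMZM2G097641) at 2.25 FPKM in wild type against 1.67 in hda108.

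Sucrose-cleaving enzymes lay closer to 0. The most abundant, the sucrose synthase gene sus1 (GRMZM2G152908), had 749 FPKM in wild type against 608 in hda108, a difference of -0.30. The highest difference of that list was 0.38 for sus2 (GRMZM2G318780), at 3.40 FPKM in wild type against 4.57 in hda108. Over its 5 compared members the median was -0.03.

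Of the sugar-sensing genes, SnrK1 (GRMZM2G107867) had 8.06 FPKM in wild type against 8.15 in hda108. The lowest difference was -0.38 for akin1 (GRMZM2G047774), a SNF4-like subunit of that kinase, and the hexokinase-named gene hex2 (GRMZM2G432801) was at 8.41 FPKM in wild type against 8.78 in hda108. The sucrose transporter gene sut1 (GRMZM2G034302), which loads sucrose into the phloem, had 19.1 FPKM in wild type against 14.5 in hda108. The transporter genes sut2 and sut4 differed by -0.06 and -0.04. The asparagine synthetase gene asn1 (GRMZM2G074589), of a kind that is raised by sugar starvation in many plants, had 44.8 FPKM in wild type against 50.4 in hda108.

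The trehalose 6-phosphate phosphatase gene ra3 (GRMZM2G014729), which acts in the branching of maize inflorescences, was listed at 0 in both genotypes. No other phosphatase or trehalase and no UDP-glucose pyrophosphorylase was found by name. The pathway that the name TPS9 may point to is therefore covered in part.

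**Figure D5:**
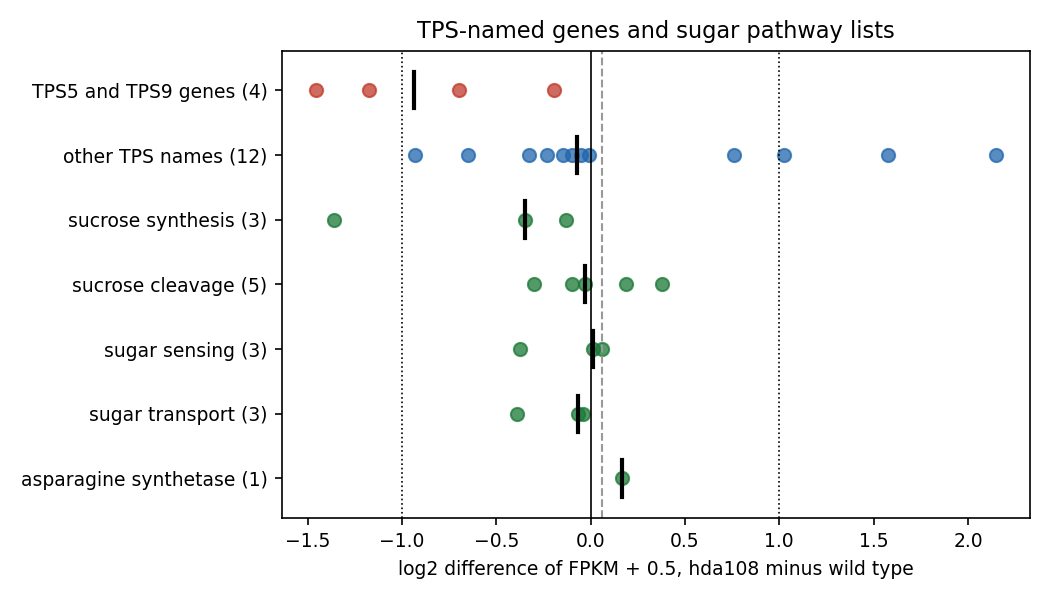
Log2 difference, hda108 minus wild type, of each compared gene with a TPS name and of each compared gene in the sugar lists, with the number of genes in brackets. Short black bars are medians, the dashed line is the median of all compared genes (0.06) and dotted lines mark 2-fold. The 4 genes described here, marked as TPS5 and TPS9 genes, lie between -1.46 and -0.20. Other TPS names, including the remaining holders of the name TPS5, lie between -0.93 and 2.15.

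Genes next to the 4 loci had median differences close to 0, but on chromosome 10 several were past 2-fold. Of all compared genes, 2.31% were past 2-fold in either direction. The 20 nearest compared genes of GRMZM2G122231 had a median difference of -0.09 and none was past 2-fold. Those of GRMZM2G312521 had a median of 0.11, with 1 past 2-fold lower, GRMZM2G155499 at 7.06 FPKM in wild type against 2.27 in hda108. Those of TPS5 had a median of 0.05 with 2 past 2-fold higher, and those of GRMZM2G465812 a median of 0.12 with 3 higher and 1, TPS5 itself, lower. These counts are not separate, since 16 of the 20 neighbours are the same genes, and both genes counted as higher near TPS5, GRMZM2G407495 and tps10, are among the 3.

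Among compared genes with an informative name, leaving out the 4 genes themselves, the catalase gene cat2 (GRMZM2G090568) had the values nearest to those of TPS5. Likeness was the Euclidean distance between 2 genes over their log2 FPKM in wild type and in hda108, and so rests on 2 values per gene. The gene cat2 had 3.78 FPKM in wild type against 1.12 in hda108, a distance of 0.055. For both TPS5 and GRMZM2G122231 the nearest 3 were cat2, EMB2219 (GRMZM2G426154) and TPS4, at distances of up to 0.565 and 0.357. TPS5 and GRMZM2G122231 were themselves 0.254 apart. For GRMZM2G312521 they were PIF5 (GRMZM2G165042), named like a phytochrome-interacting factor, TAZ3 (GRMZM2G121115) and PR10 (GRMZM2G112524), within 0.160. For GRMZM2G465812 they were ZmCASPL5A1 (GRMZM2G086604), pglcat7 (GRMZM2G160585) and the haemoglobin gene Hb2 (GRMZM2G168898), within 0.061.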

How the data were processed

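The authors deposited FPKM for each gene as 1 value per genotype. Per the submitters' processing notes, the build was B73 RefGen_v3 and the tools included TopHat2 2.0.13 and Cuffdiff 2.2.1, besides Cufflinks, SAMtools, Trimmomatic 0.33 and CASAVA 1.8, without roles or settings. How the 3 libraries of a genotype were combined or scaled is not given in the sources used here. The mutant column is headed as homozygous and was read as hda108. The limma fit planned for values per replicate could not be run, so sizes are given without p-values.

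From the deposited FPKM, log2 differences used a pseudocount of 0.5, a minimum mean of 1 FPKM and a 2-fold rule. Names are RefSeq synonyms (Zm-B73-REFERENCE-NAM-5.0, names and lengths alone), and 19060 of 39604 identifiers matched an entry. The genes and lists were chosen with earlier results of these data known. Named were the 4 genes, HDA108, other TPS-named genes past 2-fold or abundant, list members with the largest difference in each direction or the highest level, and the 3 genes nearest in values to each. Further genes, including holders of shared names, were named after their values were seen. Planned comparisons of protein and promoter sequences were not made. Values were computed in pandas 2.3.3 and numpy 2.4.6 under Python 3.11.15, and drawn with matplotlib 3.10.9.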

Additional observations from a re-analysis of the deposited data

How the results depend on the processing

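All 4 genes kept a lower value in hda108 with pseudocounts of 0.1 and 1 and with median centring, upper-quartile, equal-sum and quantile scaling. These settings could hardly have reversed the direction, since no pseudocount can change the sign of a difference. In that order, the scalings shifted the median difference of all compared genes by -0.061, -0.043, -0.009 and -0.054, towards lower values in hda108. TPS5 ranged from -1.73 to -1.22, GRMZM2G122231 from -1.39 to -0.98, GRMZM2G312521 from -0.89 to -0.55 and GRMZM2G465812 from -0.26 to -0.18. With a pseudocount of 1, GRMZM2G122231 was at -0.98 and no longer past 2-fold, by the construction of that scale. The sum of TPS5 and TPS4, chosen after the data were seen, stayed past 2-fold (-1.30). Of all genes, 176 were past 2-fold lower and 311 higher. With a mean of at least 5 FPKM these were 93 and 133, and with a 1.5-fold rule 764 and 1120. The median difference of the neighbours of GRMZM2G122231 was 0.017 with 5 genes on each side and 0.024 with 20, against -0.093 with 10, and the cause was not tested. No paired analysis was possible because the table holds 1 value per genotype, and for the same reason no replicate could be left out. Families by protein sequence were not run. Depth is unknown, so the precision of levels near 1 FPKM is unknown.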
